A study of Homo sapiens with 12 samples.

Results

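The 42 collagen genes of the array were followed across 12 two-channel arrays of 8 human tumour cell lines. Members were all genes whose annotated symbol had the form of a collagen chain gene (COL, a type number, A and a chain number), and they made up 42 of the 18334 named genes, read by 93 array features. They were grouped as 11 fibrillar chains, 8 basement membrane chains (types IV, XV and XVIII) and 23 other chains by the textbook structure of the encoded protein. Each array carried the RNA of 1 cell line in Cy5 and, in Cy3, a reference that the labels call whole human total RNA, the same on every array. Capan2, HPAC and HPAFII, established lines of pancreatic cancer, and HCT-116 and SW620, catalogued as colorectal, had 1 array each and no media label. The pancreatic line Panc1 had 2 arrays labelled DMSO (1 and 4), the colorectal line HT29 had 2 labelled DMSO (2 and 4), and the pancreatic line MiaPaca2 had 2 labelled DMSO (1 and 2) and 1 without a media label. The series' design text calls all 8 lines pancreatic. No dose, time, drug or separate culture is named, so each p-value rests on array-to-array variation that could be purely technical, and the number of arrays limits the precision.

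Collagens are built from 3 chains wound into a helix along stretches in which glycine recurs at regular steps. Fibrillar collagens form the tensile fibres of connective tissue and are made mainly by fibroblasts, type IV forms the sheet under epithelia and around vessels, and further types link fibrils, anchor the basement membrane or span the cell membrane. In carcinomas of the pancreas most fibrillar collagen is laid down by stromal cells, which cultures of tumour cell lines lack. Values are log2 ratios, taken as cell line over reference, so that a value below 0 means less RNA in the line than in the reference. That direction is likely from the dyes and is not stated. A ratio says nothing of how strongly a gene is expressed relative to another gene.

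The type IV chain genes lie in head-to-head pairs, each pair reading outward from a short stretch that holds both starts. The 3 windows printed here, from RefSeq on GRCh38.p14, are 300 bases long, mostly before the annotated start, and belong to COL4A2 (chr13:110307034-110307333), COL4A3 (chr2:227164374-227164673) and COL4A5 (chrX:108439588-108439887), all on the plus strand. Capitals mark the bases that also lie in the window of the partner on the minus strand, which are 226 bases shared with COL4A1, 82 with COL4A4 and 121 with COL4A6. COL4A6 also had another window (chrX:108438373-108438672), which does not reach that of COL4A5.
COL4A2: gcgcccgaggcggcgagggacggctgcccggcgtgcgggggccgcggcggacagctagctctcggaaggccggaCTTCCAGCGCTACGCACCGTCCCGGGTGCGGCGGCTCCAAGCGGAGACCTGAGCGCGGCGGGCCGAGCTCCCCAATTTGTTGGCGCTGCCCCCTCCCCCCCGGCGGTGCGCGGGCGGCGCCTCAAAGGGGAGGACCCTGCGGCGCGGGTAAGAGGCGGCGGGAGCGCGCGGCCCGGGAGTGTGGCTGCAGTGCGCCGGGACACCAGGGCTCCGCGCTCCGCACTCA
COL4A3: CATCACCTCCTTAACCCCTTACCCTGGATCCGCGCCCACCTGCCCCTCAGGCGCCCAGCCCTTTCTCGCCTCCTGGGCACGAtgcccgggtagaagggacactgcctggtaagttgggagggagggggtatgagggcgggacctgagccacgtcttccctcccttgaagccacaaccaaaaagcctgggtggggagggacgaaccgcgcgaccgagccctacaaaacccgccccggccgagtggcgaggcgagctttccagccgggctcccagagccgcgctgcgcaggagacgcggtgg
COL4A5: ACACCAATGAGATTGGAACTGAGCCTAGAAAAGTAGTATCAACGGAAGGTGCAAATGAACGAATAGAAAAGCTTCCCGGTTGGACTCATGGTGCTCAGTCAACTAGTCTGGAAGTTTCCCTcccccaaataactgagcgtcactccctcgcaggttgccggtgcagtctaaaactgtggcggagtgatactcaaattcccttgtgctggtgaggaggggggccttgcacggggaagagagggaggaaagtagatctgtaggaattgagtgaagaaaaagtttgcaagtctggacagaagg

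Windows of COL11A1 (chr1:103108473-103108772, minus strand), the member with the widest range over the lines, and COL16A1 (chr1:31703968-31704267, minus strand), which was lower in both Panc1 and MiaPaca2 than in HT29, are shown for contrast. Capitals mark 4 motifs on either strand: the CCAAT box (searched as CCAAT), the GC box bound by SP1 (GGGCGG), an E-box bound by ZEB1 and SNAI1 (CAGGTG) and the TATA box (TATAAA), and none of the matches in these windows overlap.
COL11A1: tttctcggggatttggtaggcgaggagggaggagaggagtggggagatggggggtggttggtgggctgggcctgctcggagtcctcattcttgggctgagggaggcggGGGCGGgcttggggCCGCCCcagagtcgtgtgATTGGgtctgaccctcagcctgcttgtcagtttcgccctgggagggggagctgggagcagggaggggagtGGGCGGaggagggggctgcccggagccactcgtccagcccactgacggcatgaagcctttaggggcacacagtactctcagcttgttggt
COL16A1: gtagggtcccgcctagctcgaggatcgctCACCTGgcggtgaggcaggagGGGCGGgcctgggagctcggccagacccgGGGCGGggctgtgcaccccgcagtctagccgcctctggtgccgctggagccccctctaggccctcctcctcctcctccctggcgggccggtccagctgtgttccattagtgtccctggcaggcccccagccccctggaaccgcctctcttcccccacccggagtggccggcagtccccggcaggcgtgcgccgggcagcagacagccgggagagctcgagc

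The COL11A1 window held CCAAT 1 time and GGGCGG 3 times, and that of COL16A1 held GGGCGG 2 times and CAGGTG 1 time. Windows were at hand for 30 of the 42 genes, 42 windows in all. GGGCGG lay in 57.1% of them and in 45.0% of the 35116 windows of all genes, CCAAT in 31.0% and 34.6%, CAGGTG in 11.9% and 20.6%, and TATAAA in 14.3% and 11.5%. A match describes letters and not binding.

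Most collagen genes stood below the reference in most lines. Of the 42, 19 were below 0 on all 12 arrays, which is 45.2% beside 11.1% of all named genes, and 7 were below -1 on all 12 (3.47% of all named genes). COL28A1, a chain of a small collagen with von Willebrand domains, was the member above 0 on all 12, between 0.19 and 0.80, as were 8.99% of all named genes. The median over genes of the mean over 8 lines was -1.44 for fibrillar, -1.11 for basement membrane and -0.68 for other chains, and 0.02 for all named genes. The basement membrane median was -2.08 when each gene was read by its most variable feature alone. Genes that mark fibroblasts and stroma were low on the same arrays: 9 of 12, such as decorin (DCN, -4.28 to -2.78) and lumican (LUM, -5.64 to -2.09), were below 0 on all arrays, and the mean of the list ran from -2.97 to -2.40 over the arrays. The part of stromal RNA in the reference in the collagen ratios was not tested. In RNA of whole cultures, fewer cells making a transcript and less RNA per cell cannot be told apart.

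**Figure D1:**
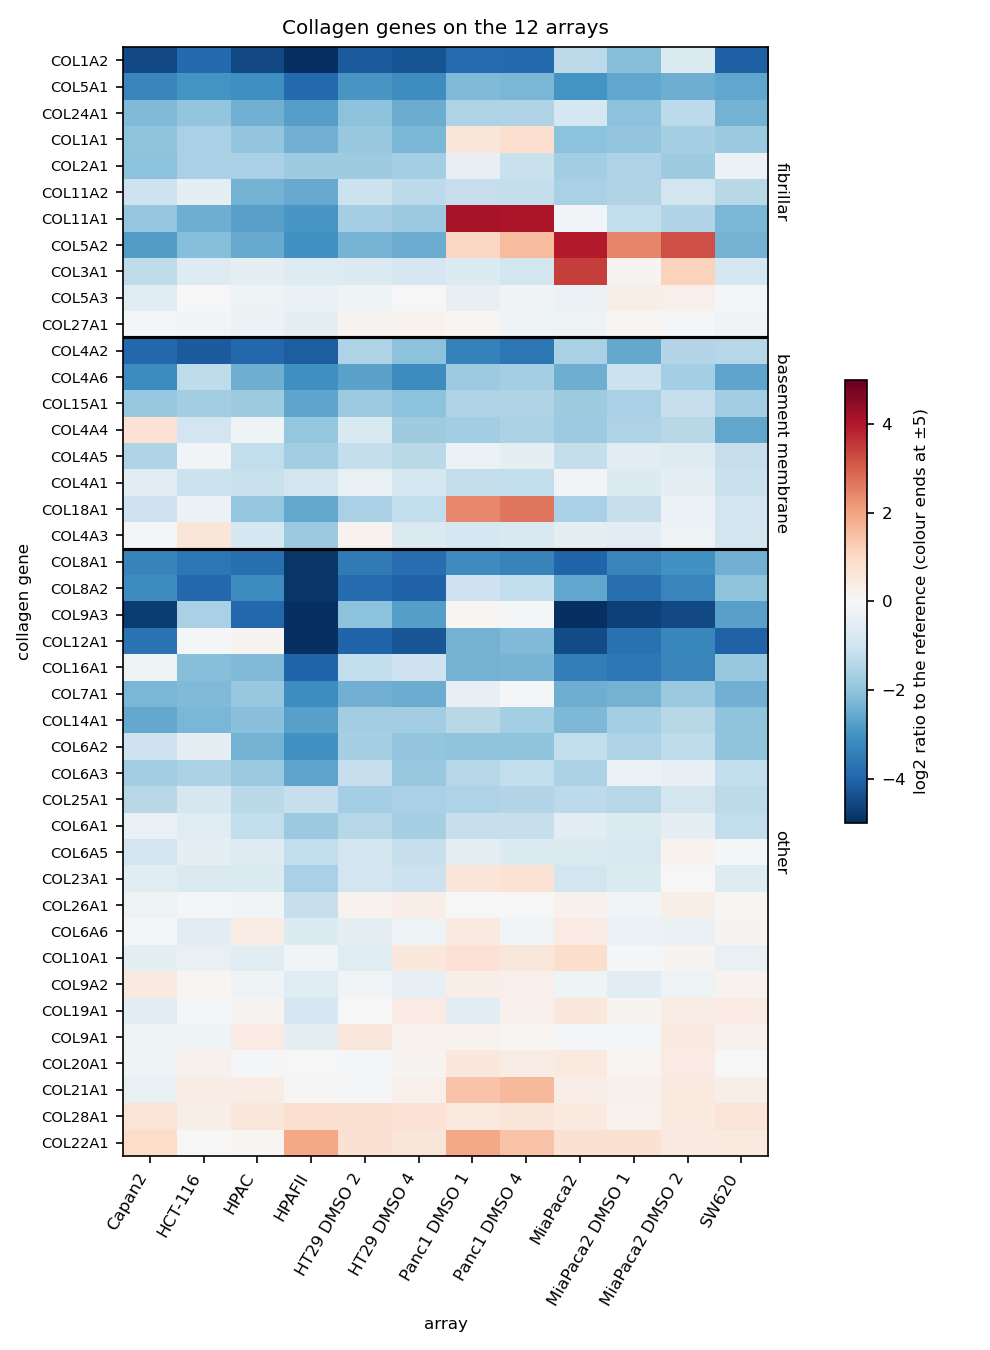
Log2 ratio to the reference of the 42 collagen genes (rows, by class and mean) on the 12 arrays (columns), blue below and red above the reference. COL11A1 on the Panc1 arrays (4.14 and 4.08) and COL5A2 on the MiaPaca2 arrays (2.43 to 3.95) stand out against rows that are blue in most lines.

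Among fibrillar chains, values far above the reference came from single chains in Panc1 and MiaPaca2, while the median of the class was below 0 in every line. Line medians of the 11 chains lay between -2.52 in HPAFII and -0.77 in Panc1. The basement membrane median lay between -2.25 in HPAFII and -1.01 in HCT-116, and that of the other chains between -1.24 in HPAFII and -0.16 in Panc1. HPAFII held the lowest line mean for 29 of 42 collagen genes (69.0%, beside 20.2% of all named genes). Its array also had the widest spread of values, with an SD of 1.57 against 1.13 for the narrowest array. With arrays scaled to the same SD, a setting chosen after seeing the data, HPAFII was lowest for 14 members (33.3%, beside 12.8% of all genes), so this ordering moved with the scaling. Panc1 held the highest mean for 12 of 42 members and for 3486 of 18334 named genes, and after scaling for 31.0% of members and 20.5% of named genes.

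**Figure D2:**
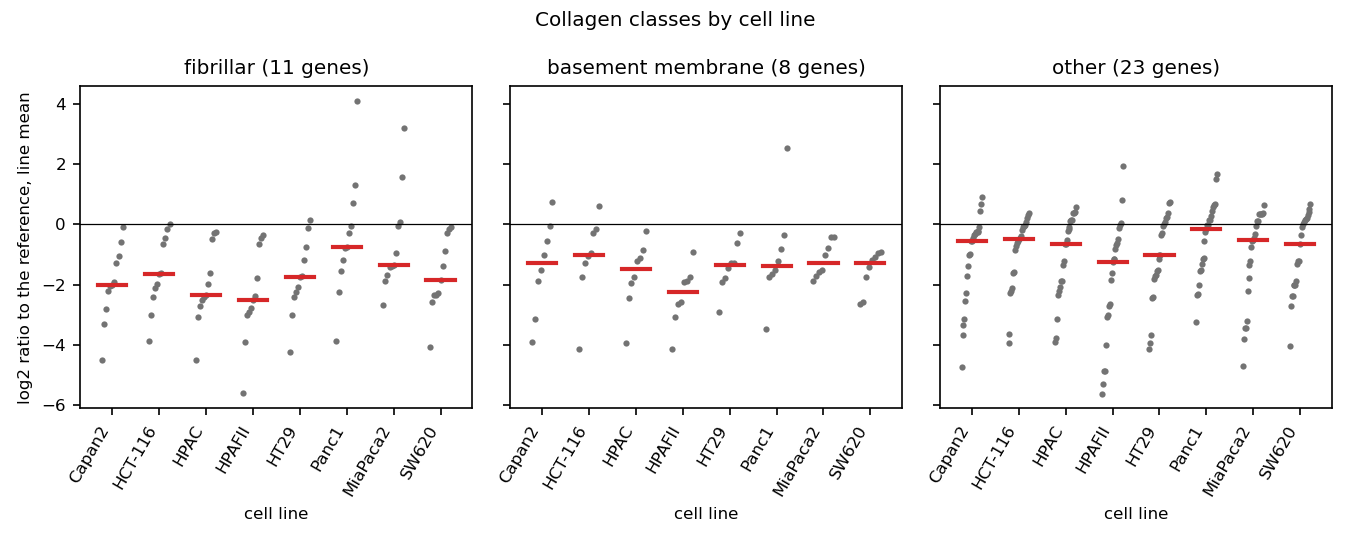
Line means of the log2 ratio to the reference for fibrillar, basement membrane and other collagen genes in 8 cell lines, each point a gene and each bar the class median. Most points lie below 0, and the fibrillar medians run from -2.52 in HPAFII to -0.77 in Panc1.

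The chains of type I collagen, the main protein of tendon, bone and scar, were highest in different lines. COL1A1, which encodes the alpha1 chain, was at 0.61 and 0.83 in Panc1. It lay at -2.02 in Capan2, -1.99 in HPAC, -2.39 in HPAFII, -1.61 in HCT-116, -1.85 in SW620, -1.89 and -2.27 in HT29, and between -2.06 and -1.66 on the 3 MiaPaca2 arrays. The Panc1 arrays were thus the high ones, and the other 10 did not overlap them. COL1A2, the alpha2 chain, was instead highest in MiaPaca2, at -1.29 without a media label and -2.11 and -0.72 with DMSO. All other arrays lay between -5.59 (HPAFII) and -3.86 (Panc1 DMSO 1), with no overlap. COL1A1 was read by 10 features whose SD within an array was 0.06 to 0.34. COL1A2 was read by 11, of which 10 had means between -3.89 and -3.66 and the last a mean of -1.46, but all 11 were higher in MiaPaca2 than in HT29.

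COL5A2, a chain of the type V collagen that seeds type I fibrils, was high in both of these lines. It reached 3.95, 2.43 and 3.21 in MiaPaca2 and 1.02 and 1.59 in Panc1. In the other 6 lines it lay between -3.03 (HPAFII) and -2.13 (HCT-116). Its partner COL5A1 stayed between -3.90 and -2.20 on all arrays. COL11A1, a chain of the type XI collagen of cartilage fibrils that is also made in desmoplastic tumours, was at 4.14 and 4.08 in Panc1 and between -2.90 and -0.12 elsewhere, the highest of these being the MiaPaca2 array without a media label.

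COL3A1, the single chain of the type III collagen of vessel walls and wounds, separated the MiaPaca2 arrays from each other. It read 3.44 without a media label, 0.13 and 1.15 with DMSO, and -1.27 to -0.48 on the 9 arrays of other lines. Its 5 features disagreed in size, with MiaPaca2 minus HT29 differences from 0.05 to 3.50. Of the remaining fibrillar chains, COL2A1 lay between -2.04 and -0.28, COL11A2 between -2.52 and -0.46, COL24A1 between -2.77 and -0.86, COL5A3 between -0.60 and 0.31 and COL27A1 between -0.47 and 0.18.

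**Figure D3:**
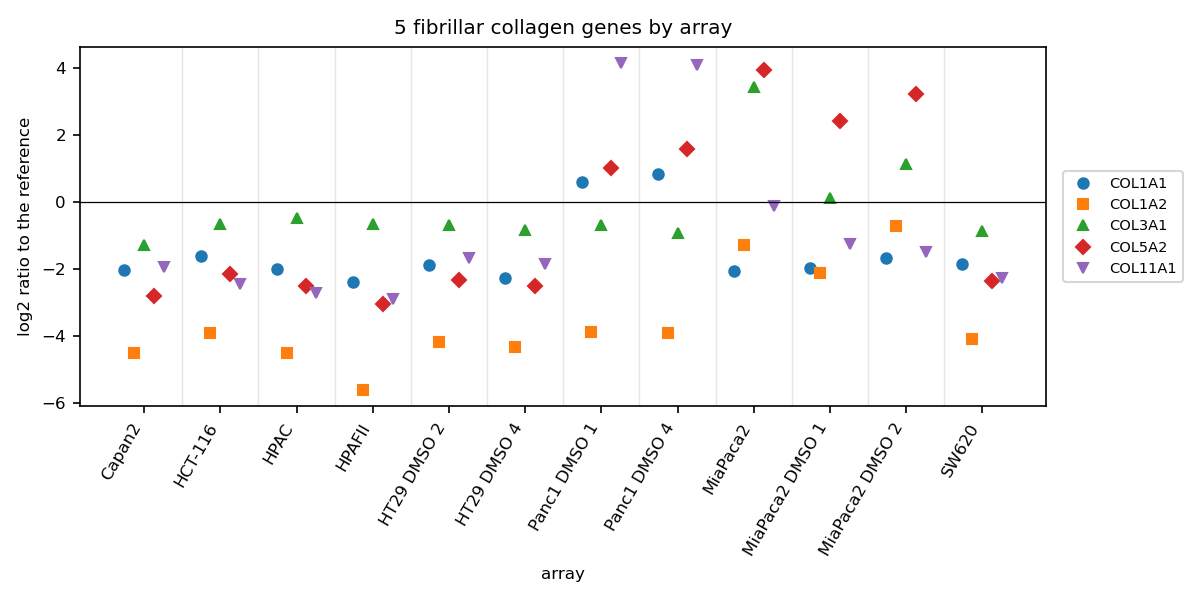
Log2 ratio to the reference of COL1A1, COL1A2, COL3A1, COL5A2 and COL11A1 on each array. COL1A1 and COL11A1 are highest on the 2 Panc1 arrays and COL1A2 and COL3A1 on the 3 MiaPaca2 arrays, while COL5A2 is higher on all 5 than elsewhere. COL1A2 stays below 0 in MiaPaca2 (-2.11 to -0.72), and COL3A1 is at 0.13 on MiaPaca2 DMSO 1.

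The type IV chains did not move as 1 block. COL4A1 and COL4A2, the chains of the basement membrane common to nearly all tissues, have overlapping promoter windows. COL4A2 was at -1.41 in SW620, -1.53 and -2.06 in HT29 and -1.61, -2.56 and -1.48 in MiaPaca2. It was at -3.38 and -3.61 in Panc1 and between -4.15 and -3.91 in Capan2, HCT-116, HPAC and HPAFII. COL4A1 stayed between -1.23 and -0.14 on all arrays, over 3 features whose means ran from -1.73 to -0.14. These features disagreed: 1 ran from -3.10 in HPAFII to -0.60 in MiaPaca2, and another stayed between -0.37 and 0.29. The former was high with COL4A2 in MiaPaca2 but read -2.47 in SW620, where COL4A2 was highest. COL4A2 had 1 feature.

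COL4A5 and COL4A6, paired on the X chromosome and found in basement membranes of kidney, skin and smooth muscle, had a like order of lines. COL4A5 was highest in HCT-116 (-0.14), followed by Panc1 (-0.28 and -0.46) and MiaPaca2 with DMSO (-0.51 and -0.66), and lay between -1.74 and -1.17 on the other arrays. COL4A6 was at -1.28 in HCT-116, -1.81 and -1.70 in Panc1 and -1.07 and -1.69 in MiaPaca2 with DMSO, and between -3.15 and -2.43 elsewhere. Over the 8 line means the pair had r = 0.95 and rho = 0.93, against r = 0.33 and rho = 0.12 for COL4A1 with COL4A2 and r = 0.46 and rho = 0.69 for COL4A3 with COL4A4. These are descriptions of 8 points that share the reference and the array of each line. COL4A3 and COL4A4, chains of the kidney filter, were each above 0 on few arrays: COL4A3 in HCT-116 (0.62) and on 1 HT29 array (0.18), and COL4A4 in Capan2 (0.73). The COL4A3 values average 2 features that disagreed. Of these 1 ran from -3.50 in HPAFII to 0.97 in HCT-116, and the other from -0.23 in HPAFII to 1.24 in Capan2. The r and rho of COL4A3 with COL4A4 rest on that average.

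COL18A1, whose C-terminal fragment is the angiogenesis inhibitor endostatin, was at 2.42 and 2.68 in Panc1. Elsewhere it lay between -2.57 (HPAFII) and -0.28 (HCT-116), so the groups did not overlap. COL15A1, the other collagen of this kind, lay between -2.64 and -1.17.

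**Figure D4:**
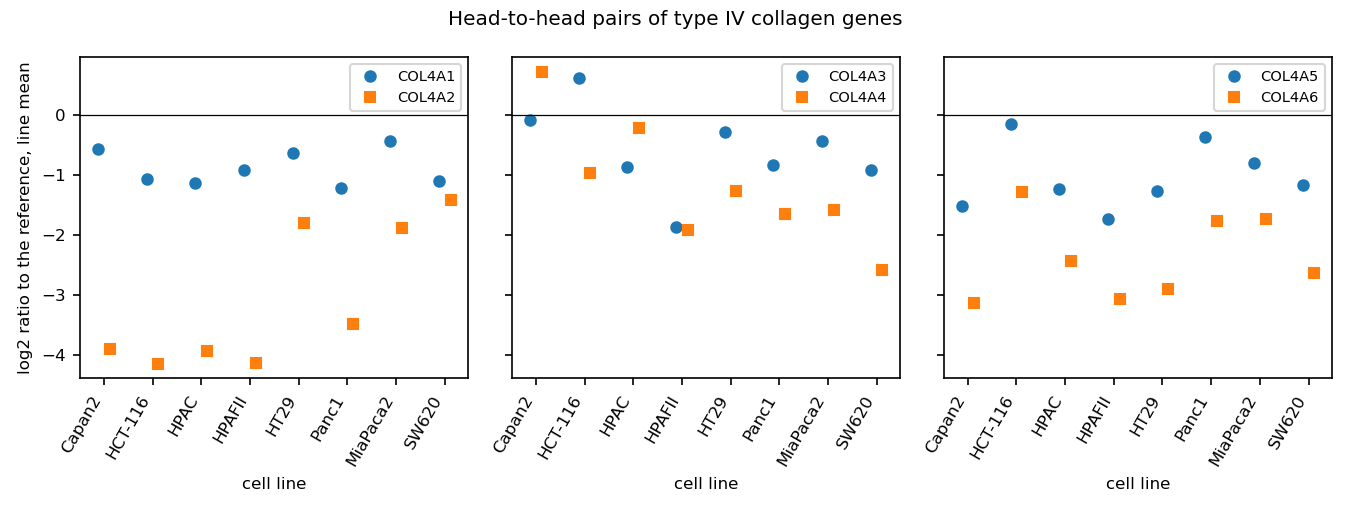
Line means of the log2 ratio to the reference for the 3 head-to-head pairs of type IV collagen genes in 8 cell lines. COL4A5 and COL4A6 keep a like order of lines, while COL4A2 ranges from -4.15 to -1.41 and COL4A1, averaged over 3 features that disagree, from -1.22 to -0.43.

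Type VI collagen forms beaded filaments from the products of COL6A1, COL6A2 and COL6A3. COL6A1 lay between -1.84 (HPAFII) and -0.32 (Capan2). These values average 4 features whose means ran from -2.63 to 0.36. Of these 1 lay between -4.24 and -0.82 over the arrays and another between -0.08 and 0.72. COL6A2, the neighbour of COL6A1 on chromosome 21, lay between -3.03 (HPAFII) and -0.49 (HCT-116). Capan2, HCT-116 and MiaPaca2 had the 3 highest line means for both genes. COL6A3, averaged over 2 features, was highest in MiaPaca2 with DMSO, at -0.30 and -0.41, and otherwise lay between -2.65 and -1.17. Its features disagreed, with MiaPaca2 minus HT29 differences of -0.24 and 2.59. COL6A5 and COL6A6 lay between -1.24 and 0.17 and between -0.68 and 0.43.

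Of the 23 other chains, 8 had their highest line mean in Panc1, among them COL7A1, COL8A2 and COL9A3. COL7A1, which forms the anchoring fibrils of skin and mucosa, was at -0.40 and -0.07 there and between -3.09 and -1.85 elsewhere. COL8A2, of the network under corneal endothelium, was at -1.03 and -1.24, followed by SW620 at -2.03, with the rest between -4.88 and -2.60. COL9A3, of the type IX collagen that coats cartilage fibrils, was at 0.05 and -0.10, followed by HCT-116 at -1.61 and HT29 at -2.04 and -2.76, and reached -5.30 in HPAFII. COL12A1 and COL16A1 were highest in other lines. COL12A1, a fibril-associated chain, was at 0.14 in HPAC and -0.08 in HCT-116, then -2.38 and -2.22 in Panc1 and between -5.63 and -3.27 on the other arrays. COL16A1, another fibril-associated chain, was at -0.27 in Capan2 and -1.25 and -1.04 in HT29, against -3.60 to -3.29 in MiaPaca2 and -4.00 in HPAFII.

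COL8A1, COL14A1 and COL25A1 were below 0 on all arrays, with values from -4.86 to -0.85. COL9A1, COL9A2, COL10A1, COL19A1, COL20A1 and COL26A1 stayed within -1.15 to 0.89. COL21A1 reached 1.62 in Panc1, COL22A1 reached 1.95 in Panc1 and 1.94 in HPAFII, and COL23A1 was above 0 at 0.60 and 0.73 in Panc1 and at 0.02 on 1 MiaPaca2 array. Line means spanned at least 5 log2 units for COL11A1, COL5A2, COL12A1, COL9A3 and COL18A1, 5 of the 42, and for 4.45% of all named genes. Of all named genes, 99.2% had a smaller range over the 8 line means than COL11A1, 98.4% than COL5A2, 97.6% than COL12A1, 96.3% than COL9A3 and 95.9% than COL18A1.

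Panc1, HT29 and MiaPaca2, with 2 DMSO arrays each, could be compared against the spread between arrays of a line. Genes were tested with limma over all 18334 genes, and a gene was called when its Benjamini-Hochberg adjusted p was under 0.05. In Panc1, 15 of 42 collagen genes were higher than in HT29 and 2 lower, with 25 not called. The 17 calls made 40.5% of the members, beside 37.3% of all named genes. The share higher was 35.7%, beside 21.4% of all named genes, and the share lower 4.76% beside 15.9%. These counts moved with single arrays: without HT29 replicate 4 they were 11 higher and 5 lower, without HT29 replicate 2 they were 13 and 1, and without Panc1 replicate 1 they were 10 and 2. The median difference was 0.43 for collagens and 0.07 for all genes.

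Among the 11 fibrillar genes, Panc1 was called above HT29 for 5 and below it for none. These 5 calls made 45.5% of the class, beside 37.3% of all named genes. COL11A1 had the highest difference at 5.87 (SE 0.22, limma, adjusted p = 2.603e-06). COL5A2 was higher by 3.71 (SE 0.317) and COL1A1 by 2.80 (SE 0.245, adjusted p = 7.034e-05 by limma). COL2A1 and COL5A1 were higher by 0.96 and 0.76. With quantile normalization these 2 were not called (0.76 and 0.17), nor were they without Panc1 replicate 1 (0.60 and 0.72) or HT29 replicate 4 (0.99 and 0.67). COL5A1 was not called without Panc1 replicate 4 either (0.81), nor COL2A1 without HT29 replicate 2 (0.93).

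Among the 8 basement membrane genes, Panc1 was called above HT29 for 3 and below it for 1. These 4 calls made 50% of the class, beside 37.3% of all named genes. COL18A1 was higher by 3.99 (SE 0.315, limma, adjusted p = 4.183e-05), with features at 2.41 and 5.57. COL4A5 and COL4A6 were higher by 0.90 and 1.14, and COL4A2 was lower at -1.69 (SE 0.366). Those 3 were not called without 1 or another array: COL4A6 with quantile normalization (0.71), COL4A5 and COL4A6 without HT29 replicate 4 (0.83 and 0.90), Panc1 replicate 1 (0.80 and 1.20) or Panc1 replicate 4 (0.99 and 1.09), and COL4A2 without HT29 replicate 2 (-1.43).

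Among the 23 other chains, Panc1 was called above HT29 for 7 and below it for 1. These 8 calls made 34.8% of the class, beside 37.3% of all named genes. The share higher was 30.4% beside 21.4%, and the share lower 4.35% beside 15.9%. COL8A2 was higher by 2.81, COL9A3 by 2.37, COL7A1 by 2.20, COL12A1 by 1.85, COL23A1 by 1.67, COL21A1 by 1.46 and COL22A1 by 0.99. COL12A1 stood at 1.21 with quantile normalization. COL16A1 was lower at -1.21. COL22A1 was not called without HT29 replicate 2 (1.06), HT29 replicate 4 (0.91) or Panc1 replicate 1 (0.72). Of the 17 calls, 11, namely COL1A1, COL5A2, COL7A1, COL8A2, COL9A3, COL11A1, COL12A1, COL16A1, COL18A1, COL21A1 and COL23A1, held under every alternative tried. Epithelial markers were lower in Panc1 on the same arrays, 6 of 7 called with EPCAM at -4.34. Of 4 mesenchymal markers VIM was higher by 6.41, CDH2 by 3.88 and ZEB1 by 1.78, while FN1 (0.18) was not called. The part of these markers in the collagen differences was not tested.

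In MiaPaca2 with DMSO, 7 of 42 collagen genes were higher than in HT29 and 2 lower. The share called, 21.4%, was below the 31.9% of all named genes, and the share higher was 16.7% beside 17.4%. COL5A2 had the highest difference, 5.22 (SE 0.317, limma, adjusted p = 1.248e-05), followed by COL1A2 at 2.83 (SE 0.402, limma, adjusted p = 0.001105). COL4A6 was higher by 1.52, COL3A1 by 1.40, COL6A3 by 1.18, COL6A1 by 0.98 and COL4A5 by 0.69. Features of the same gene differed in sign for COL6A3 (-0.24 and 2.59), COL6A1 (-0.36 to 2.16) and COL4A5 (-0.13 to 1.2). COL16A1 and COL9A3 were lower, at -2.30 and -2.20.

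In MiaPaca2 all 7 epithelial markers were lower than in HT29. Of 4 mesenchymal markers VIM was higher by 6.76 and ZEB1 by 3.22, while CDH2 (0.09) and FN1 (-0.09) were not called. The part of these markers in the collagen differences was not tested. COL5A2, COL1A2, COL4A6, COL16A1 and COL9A3 were called under every alternative. COL3A1 depended on how its features were joined, with 3.50 for the most variable feature and 0.32, not called, for the median over features, and it stood at 0.88 without MiaPaca2 replicate 2. Without MiaPaca2 replicate 1, 11 were higher and 2 lower. Without HT29 replicate 4, 5 collagen genes were called, 3 higher and 2 lower, and COL3A1 (1.31), COL4A5 (0.62), COL6A1 (0.87) and COL6A3 (0.81) were not. COL3A1 and COL4A5 were not called without HT29 replicate 2 (1.48 and 0.75), COL4A5 and COL6A3 without MiaPaca2 replicate 1 (0.61 and 1.12), and COL4A5 without MiaPaca2 replicate 2 (0.76). With the 3 MiaPaca2 arrays as 1 group, 6 collagen genes were called, 4 higher and 2 lower, and COL3A1, COL4A5 and COL6A3 were not. On the MiaPaca2 array without a media label COL6A3 (-1.60) and COL4A5 (-1.21) lay between the 2 HT29 arrays (-1.17 and -1.89, -1.20 and -1.34). COL3A1 was highest on that array (3.44). The comparisons of Panc1 and of MiaPaca2 with HT29 share the HT29 arrays. Side by side, COL5A2 was higher in both, COL9A3 was higher in Panc1 and lower in MiaPaca2, and COL16A1 was lower in both.

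**Figure D5:**
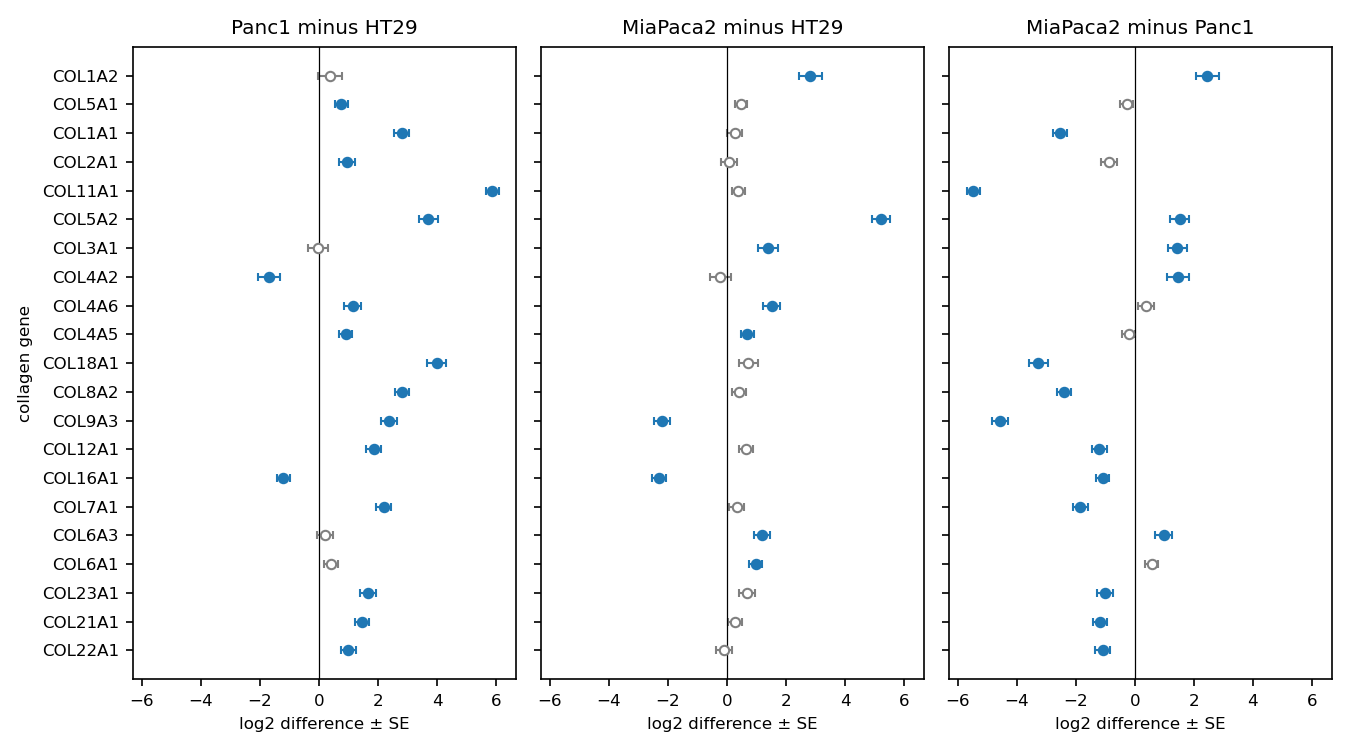
Log2 differences with their SE between lines with DMSO label, n = 2 arrays each, for the 21 collagen genes called in at least 1 comparison. Filled points have a limma adjusted p under 0.05 over all genes, and COL11A1 lies at 5.87 for Panc1 minus HT29 and at -5.48 for MiaPaca2 minus Panc1.

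MiaPaca2 and Panc1, both of pancreatic origin, differed in 16 of 42 collagen genes, 38.1% beside 18.7% of all named genes. In MiaPaca2 5 were higher (11.9% beside 7.4%) and 11 lower (26.2% beside 11.3%). Among fibrillar chains COL1A2 was higher in MiaPaca2 by 2.46 (SE 0.402, limma, adjusted p = 0.004218), COL5A2 by 1.52 and COL3A1 by 1.44. COL11A1 was lower at -5.48 (SE 0.22, limma, adjusted p = 1.022e-05) and COL1A1 at -2.54 (SE 0.245). COL4A2 was higher by 1.47, COL6A3 by 0.97, and COL18A1 was lower at -3.27 (SE 0.315). Of the remaining chains COL9A3 was at -4.57, COL8A2 at -2.40, COL7A1 at -1.86, COL12A1 at -1.20, COL21A1 at -1.18, and COL16A1 and COL22A1 at -1.09, all lower in MiaPaca2, as was COL23A1. On the same arrays 3 of 7 epithelial markers were lower in MiaPaca2, EPCAM at -4.66, CDH1 at -2.40 and KRT19 at -2.24, while of 4 mesenchymal markers CDH2 was lower at -3.79 and ZEB1 higher by 1.44. Their part in the collagen differences was not tested.

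COL1A1, COL1A2, COL7A1, COL8A2, COL9A3, COL11A1 and COL18A1 were called under every alternative. Only those 7 were called when Panc1 replicate 1 was left out, and leaving out Panc1 replicate 4 gave 9 calls, in a table where 1661 and 1656 genes were then called in place of 3422. COL3A1, COL4A2, COL6A3, COL12A1, COL16A1, COL21A1 and COL23A1 lost the call without either Panc1 array, and COL5A2 (1.23) and COL22A1 (-0.82) without replicate 1. Leaving out MiaPaca2 replicate 2 ended the calls of COL4A2 (0.93), COL5A2 (1.13), COL6A3 (1.03) and COL22A1 (-0.93), and leaving out replicate 1 those of COL6A3 (0.92) and COL23A1 (-0.65). Of the 5 higher calls, 1 was left without Panc1 replicate 1 and 2 without Panc1 replicate 4 or MiaPaca2 replicate 2. With the 3 MiaPaca2 arrays as 1 group, COL3A1 and COL6A3 were not called, and 3 collagen genes were higher and 12 lower. COL12A1 stood at -0.70, not called, with its most variable feature. COL3A1 was at 3.43 with its most variable feature, at 0.93 without MiaPaca2 replicate 2, and at 0.79, not called, with the median over features.

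Between the MiaPaca2 arrays with and without a media label, 1 collagen gene passed the threshold, on spread borrowed from other groups. COL3A1 read lower on the labelled arrays, at -2.79 (SE 0.407, n = 2 arrays and 1, limma, adjusted p = 0.03333), a call lost without MiaPaca2 replicate 1 (-2.28) and with arrays scaled to the same SD (-2.67). Of all named genes 0.6% were called, 0.3% higher and 0.3% lower. On the same arrays 2 of 7 epithelial markers and 1 of 12 stroma markers were higher with the label, and their part in the difference was not tested. The unlabelled group is 1 array, so its spread could not be measured and was assumed to be that of the labelled pairs. What the array without a label differs in besides the label is not given, and culture, array and label cannot be told apart.

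No collagen gene was called between the 5 pancreatic and the 3 colorectal lines. On line means limma called 0 of 42, against 4 of 18334 genes (0.0218%), and no collagen gene had an unadjusted p under 0.05. Differences ran from -1.50 to 1.52 with a median of -0.07, and the lowest p was that of COL11A2 at -0.67 (SE 0.429, limma, adjusted p = 0.7221). COL11A1 and COL5A2 each had both high and low lines among the pancreatic ones, with pancreatic values from -2.90 and -3.03 to 4.14 and 3.95. The test had 6 residual degrees of freedom, so differences of this size could be missed.

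Enzymes and chaperones that modify, fold and cross-link collagen chains were mostly higher in Panc1 than in HT29. Of 32 measured genes of collagen biosynthesis, 22 were higher and none lower, beside the 21.4% and 15.9% of all genes given above, with a median difference of 1.46. The lysyl oxidase genes LOXL2 and LOXL1, whose enzymes cross-link collagen, were higher by 5.22 and 4.62, the prolyl hydroxylase gene P3H2 by 4.00 and the lysyl hydroxylase gene PLOD2 by 3.93. In MiaPaca2 15 were higher and 2 lower than in HT29, beside 17.4% and 14.5% of all named genes. LOXL2 was higher by 6.06, P3H3 by 2.80, the procollagen processing enhancer gene PCOLCE2 by 2.59 and P3H1 by 2.25. In MiaPaca2 against Panc1, 1 was higher and 12 lower, beside 7.4% and 11.3% of all named genes. LOXL1 was at -5.81, PLOD2 at -5.22, P4HA3 at -3.16 and P3H2 at -2.74.

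Among receptors for collagen, ITGA2, a subunit of the collagen-binding integrin of epithelia, was higher in Panc1 than in HT29 by 3.48 and lower in MiaPaca2 at -2.16, and ITGA1 was lower in both, at -1.62 and -4.31. DDR2, a receptor kinase for fibrillar collagen, was higher in MiaPaca2 by 2.83. Of 10 receptor genes 3 were higher and 1 lower in Panc1, and 2 were higher and 2 lower in MiaPaca2, shares near the 37.3% and 31.9% of all named genes called. MiaPaca2 was above Panc1 for DDR2 by 3.35 and below it for ITGA2 (-5.64) and ITGA1 (-2.70).

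Partners of type IV collagen in the basement membrane (laminins, nidogens, the proteoglycans HSPG2 and AGRN, and the peroxidase PXDN) were higher in Panc1 than in HT29 for 7 of 14 measured genes, all laminins or nidogens, and lower for 3, namely LAMB3 (-1.91), AGRN (-1.29) and HSPG2 (-0.84). Among all named genes 21.4% were higher and 15.9% lower. LAMC1 was higher by 3.66, LAMB1 by 3.28, LAMC3 by 2.78 and NID1 by 2.58. In MiaPaca2 2 were higher than in HT29, LAMA2 and LAMC1 by 2.22 each, and 3 lower, LAMB3 at -2.23, AGRN at -1.70 and LAMA5 at -1.59. These 5 calls of 14 were a share near the 31.9% of all named genes called. MiaPaca2 was below Panc1 for 8 of 14, with LAMB1 at -3.78, NID1 at -2.86 and LAMC3 at -2.35, and above it for LAMA2 by 2.84. In that comparison 11.3% of all named genes were lower and 7.4% higher. No gene of these 3 lists was called between pancreatic and colorectal lines.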

How the data were processed

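The 12 two-channel arrays compared 8 cell lines with a common reference, with the reference in Cy3 and the cell line in Cy5 per the labels. The authors deposited values of 45220 features on each array, taken here as log2 ratios since the range was -10.71 to 9.61 and array medians lay at -0.001 to 0.042. The log base, the direction, the normalization and any background correction are not stated per the labels, and without intensities dim features could not be picked out. EPCAM at 3.26 and 3.58 in HT29 and VIM at 1.53 and 1.87 in Panc1 were set beside the likely direction.

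Platform annotation gave 31332 features 1 symbol, 93 several and 13795 none, and the last 2 kinds were left out. Entrez IDs of 31291 matched RefSeq (GRCh38.p14), used for names. Values were averaged over the features of each gene. limma 3.58.1 in R 4.3.3 (lmFit, eBayes, two-sided) was fitted over 18334 genes in 9 groups of line and media label, with 3 residual degrees of freedom and a prior of 5.23, and on 8 line means for origin, which follows the catalogued origin of the lines. Scripts were tested on simulated data. Alternatives were other centring or scaling, quantile normalization, other summaries of features, filters, robust eBayes, other groupings and leaving out arrays or lines. Members and lists were chosen with earlier results of these data known. Named were 14 chains chosen as main members, up to 8 called members with the largest difference per comparison, the 5 with the widest range over lines and up to 4 called genes of a pathway list per comparison; COL17A1, also chosen, was not analysed here. Across genes, r was 0.836 to 0.941 between arrays of 1 line and 0.37 to 0.731 otherwise; genes are not independent replicates. Figures were drawn with matplotlib 3.10.9.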

Additional observations from a re-analysis of the deposited data

Results flagged for a closer look

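Dixon's criterion was applied to 84 sets of line means (42 genes over the 8 lines and again over the 5 pancreatic lines). In 14 of them a line lay far from the others. Its nominal rate of about 1 in 20 holds for normal values of equal precision. The line means rest on unequal numbers of arrays, and the share flagged among all named genes was not computed, so no excess can be read from 14. Panc1 stood above the other 7 lines for COL1A1 (0.72, next -1.61), COL7A1 (-0.24, next -1.88), COL11A1 (4.11, next -0.96), COL18A1 (2.55, next -0.28) and COL21A1 (1.52, next 0.39). MiaPaca2 stood above them for COL1A2 (-1.37, next -3.87) and COL3A1 (1.57, next -0.48). HPAFII stood below them for COL15A1 (-2.64, next -1.92) and COL26A1 (-1.15, next -0.27), on the array with the widest spread of values. Within the pancreatic lines Panc1 again stood above for COL1A1 (0.72) and COL11A1 (4.11) and also for COL9A3 (-0.03, next -3.91), and MiaPaca2 for COL3A1 (1.57) and COL4A2 (-1.88, next -3.49). The sets share lines and arrays, so the flags are not independent, and HPAFII is a single array.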

How the results depend on the processing

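Over 9 summary results, 121 of 129 alternative values stayed close to the reported one. That bound was wide, since 13 calls counted as close to 17. The fit to only the 6 DMSO-labelled arrays repeated the main fit and could not move a count. Of 43 called single-gene differences, 23 stayed called throughout and none reversed direction (the call was lost in 79 of 623 alternative values). Leaving out 1 array moved the count of collagen calls to between 12 and 16 for Panc1 minus HT29 (reported 17), 5 and 13 for MiaPaca2 minus HT29 (9), 7 and 14 for MiaPaca2 minus Panc1 (16), and 0 and 1 for the MiaPaca2 media label (1), which also fell to 0 with arrays scaled to the same SD. It remained 0 for pancreatic against colorectal lines without any 1 line. A stricter bound of -1 left 7 genes below it on all arrays in place of 19. The basement membrane median was -2.08 with the most variable feature, and the median of other chains -1.32 without the least variable genes, which removes members. The cause of the other shifts was not tested. Each pair of lines shares 1 replicate number, same-numbered arrays deviated with correlations of -0.134 to 0.144, and the numbers were not taken as pairing; with the replicate number as a block, counts were 13, 8 and 11. Ratios without intensities leave the precision of dim features unknown, and 5 lines had 1 array.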
